A study of Homo sapiens with 2 samples.

Results

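The integrated stress response and serine one-carbon genes are 39 genes chosen by name, and all 39 have a row among the 40205 gene symbols of the deposited table. They were compared in RKO cells, an established human colorectal cancer line, collected on day 2 after transfection with an siRNA against hnRNPK (hnRNPK siRNA) or with a control siRNA labelled siNC. The genotype label of the first library reads hnRNPK-/-, whereas its title and the protocol describe an siRNA, so it is treated here as a knockdown. Each group has 1 library of total RNA, nothing was replicated, and no p-value is given. In such bulk RNA a transcript present in fewer cells and a transcript at a lower level per cell cannot be told apart. Levels are FPKM, reads scaled to gene length and to library size, and can be compared between genes.

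In the integrated stress response, kinases that each sense a different stress phosphorylate the translation factor eIF2, which lowers protein synthesis overall while the ATF4 mRNA is translated more through its upstream reading frames. ATF4 and its partners CHOP (gene DDIT3) and the C/EBP proteins then switch on genes of amino acid supply, tRNA charging and tRNA export, including the enzymes that make serine and pass its one-carbon unit to folate. Serine and folate metabolism feeds nucleotide and methionine synthesis in dividing cells. The values here are mRNA levels and hold no measure of eIF2 phosphorylation or of ATF4 protein.

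The siRNA target was lower, as its label says: HNRNPK was at 61.5 FPKM in hnRNPK siRNA and 338 FPKM in control siRNA, a ratio of 0.182 with a 95% counting interval of 0.174 to 0.190. Whole reads could be worked out from the FPKM values, with library totals of at least 28550823 reads in hnRNPK siRNA and 25729856 reads in control siRNA, and each interval is an exact Clopper-Pearson interval from such reads, covering counting error only. Of 10 colorectal epithelial markers, EPCAM, KRT8, KRT18 and CDX2 were above a mean of 1 FPKM, while CDH1, KRT19, KRT20, VIL1 and LGALS4 were listed at 0 in both libraries. The 6 blood cell markers summed to 0 FPKM in hnRNPK siRNA and 0.0256 FPKM in control siRNA, and the 6 stromal and endothelial markers to 0.0434 FPKM in hnRNPK siRNA and 0.00656 FPKM in control siRNA.

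Of the 39 members, 33 had a mean of at least 1 FPKM over both libraries and entered the counts. On the log2(FPKM + 1) scale, 7 of the 33 were at least 1.5-fold lower in hnRNPK siRNA (21.2%), against 14.7% of all 11454 genes tested, and 0 were at least 1.5-fold higher, against 3.67% of all genes. At 2-fold the counts were 2 lower, against 3.55% of all genes, and 0 higher, against 0.777%. The 7 lower members were the endoplasmic reticulum kinase gene EIF2AK3, the phosphatase subunit gene PPP1R15B, and the metabolic enzyme genes SHMT1, PCK2, MTR, CTH and PYCR1. The member nearest to 1.5-fold on the higher side was DDIT4. By branch they were 1 of 4 eIF2 kinases, 1 of 13 genes of the ATF4-CHOP branch and 5 of 16 enzymes of serine, folate and amino acid metabolism.

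The direction of most members did not rest on the scaling of the libraries. All genes tested had a median log2 ratio of −0.15 as deposited. At that scaling 21 of the 33 members had an FPKM ratio below 1, against 64.8% of all genes, and 12 a ratio above 1, against 35.2%. Under all 4 scalings tried 20 members stayed below 1 and 11 above 1, and DDIT3 and XPOT changed side. As deposited, the counting interval lay below 1 for 20 members, against 48.4% of all genes, and above 1 for 10 members, against 20.8%. These shares are not on equal terms, because more reads make an interval narrower. Members had a median of 2203 reads in hnRNPK siRNA and 2455 in control siRNA, against 592 and 633 for all genes tested. Centring on the median of all genes, or TMM factors, gave 5 members at least 1.5-fold lower and 2 higher, because EIF2AK3 and PPP1R15B left the lower count and JDP2 and DDIT4 entered the higher one. Of all genes tested, 8.97% were then lower and 7.22% higher after centring, and 9.22% lower and 7.73% higher with TMM factors, so the 2 higher members are near that background. With a pseudocount of 5 FPKM the lower count was 3 (SHMT1, PYCR1 and PCK2), against 5.31% of all genes. With equal totals of FPKM without small RNAs it was 10, with EIF2AK1, CEBPB and ASNS added, against 19.4% of all genes.

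**Figure D1:**
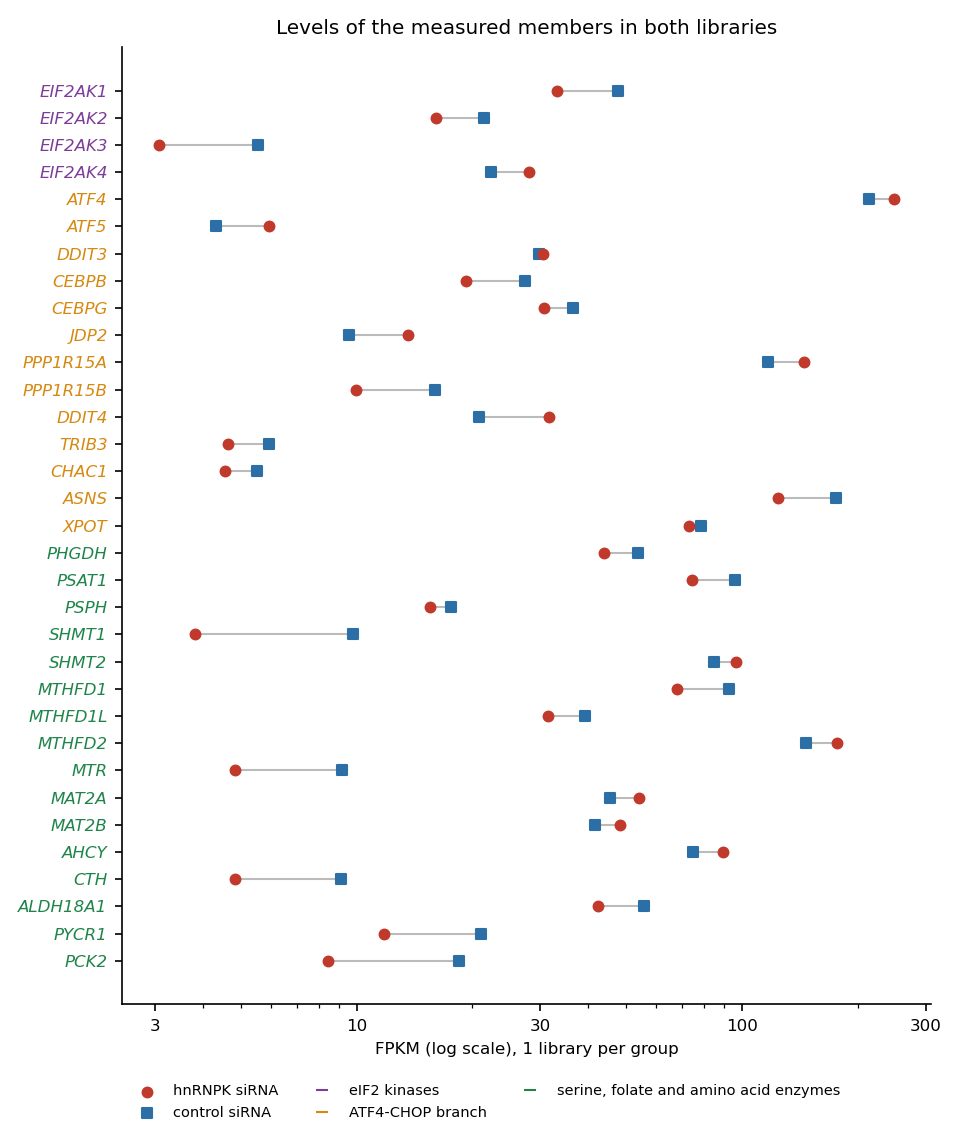
Level of each of the 33 measured members in FPKM on a log axis, with hnRNPK siRNA as circles and control siRNA as squares (1 library each, no error bars) and gene names coloured by branch. ATF4 has the highest level in both libraries, and the widest gap is that of SHMT1 at 3.80 FPKM in hnRNPK siRNA and 9.81 FPKM in control siRNA.

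Of the eIF2 kinases 3 were lower in hnRNPK siRNA and 1 was higher. EIF2AK3 (PERK), which senses unfolded protein in the endoplasmic reticulum, was at 3.07 FPKM in hnRNPK siRNA and 5.56 FPKM in control siRNA, a ratio of 0.553 (0.488 to 0.626) from 408 reads in hnRNPK siRNA and 665 reads in control siRNA. EIF2AK1 (HRI), which senses low heme and relays mitochondrial stress, had 33.2 FPKM in hnRNPK siRNA and 47.6 FPKM in control siRNA, a ratio of 0.697 (0.669 to 0.725). EIF2AK2 (PKR), which binds double-stranded RNA, had 16.1 FPKM in hnRNPK siRNA and 21.4 FPKM in control siRNA, a ratio of 0.751 (0.707 to 0.797). EIF2AK4 (GCN2), which senses uncharged tRNA, went the other way at 28.0 FPKM in hnRNPK siRNA and 22.3 FPKM in control siRNA, a ratio of 1.25 (1.18 to 1.34). The kinase for endoplasmic reticulum stress was therefore the least abundant of the 4 in both libraries and the one furthest below its control level. EIF2AK1 was the most abundant of the 4 in both. The median log2 ratio of the 4 kinases was −0.45, or −0.30 relative to the median of all genes.

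The transcription factors were split. ATF4, the member with the highest level, was at 249 FPKM in hnRNPK siRNA and 214 FPKM in control siRNA, a ratio of 1.16 (1.13 to 1.19). Its log2 ratio of 0.22 was near 0.20, the median of all genes tested from 100 FPKM. Its copy ATF4P3 was listed at 2.02 FPKM in hnRNPK siRNA and 1.23 FPKM in control siRNA, so some reads may be shared. DDIT3, which encodes CHOP, had 30.5 FPKM in hnRNPK siRNA and 29.8 FPKM in control siRNA, a ratio of 1.02 (0.935 to 1.12) whose interval includes 1 and whose side of 1 changed with equal totals. JDP2, a bZIP repressor of AP-1 sites, had 13.6 FPKM in hnRNPK siRNA and 9.58 FPKM in control siRNA, a ratio of 1.42 (1.31 to 1.54). These 3 factors thus lay at or above their control level, and JDP2 stood furthest from it. ATF5, a bZIP factor whose translation is controlled like that of ATF4, was at 5.93 FPKM in hnRNPK siRNA and 4.31 FPKM in control siRNA. Its ratio of 1.38 had an interval of 0.888 to 2.16 from the smallest reads that fit, 55 in hnRNPK siRNA and 36 in control siRNA. The recovered length of 325 bases is below the shortest GENCODE transcript of 682, so true reads may be more and this interval too wide. Whether it includes 1 is therefore not settled. CEBPB, which pairs with CHOP, had 19.2 FPKM in hnRNPK siRNA and 27.4 FPKM in control siRNA, a ratio of 0.701 (0.627 to 0.782). CEBPG, which pairs with ATF4, had 30.7 FPKM in hnRNPK siRNA and 36.4 FPKM in control siRNA, a ratio of 0.845 (0.806 to 0.886). As deposited, the 2 C/EBP genes were therefore below their control level while ATF4 was above it. CEBPG was near the median gene, with a log2 ratio of −0.09 after centring and −0.06 with TMM factors. NUPR1, a small stress-induced chromatin protein, had 0.576 FPKM in hnRNPK siRNA and 1.02 FPKM in control siRNA. The smallest reads that fit were 5 in hnRNPK siRNA and 8 in control siRNA, and its ratio of 0.563 (0.145 to 1.95) was not resolved on them. Its recovered length of 304 bases is also below the shortest GENCODE transcript of 550, so this interval may be too wide.

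The 2 subunits that direct a phosphatase to eIF2 differed in direction. PPP1R15A (GADD34), the stress-induced subunit, was at 145 FPKM in hnRNPK siRNA and 117 FPKM in control siRNA, a ratio of 1.24 (1.20 to 1.27). PPP1R15B (CReP), the constitutive subunit, had 9.95 FPKM in hnRNPK siRNA and 16.0 FPKM in control siRNA, a ratio of 0.624 (0.584 to 0.666). The level of PPP1R15A over that of PPP1R15B was 14.6 in hnRNPK siRNA and 7.36 in control siRNA. All genes tested from 100 FPKM had a median log2 ratio of 0.20, beside 0.30 for PPP1R15A. Those from 10 to 30 FPKM had −0.15, beside −0.63 for PPP1R15B.

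ATF4 acts with C/EBP proteins at the C/EBP-ATF response element, whose core was searched for as TGATGNAA on both strands of RefSeq promoter windows, 250 bases before to 50 bases after each gene's start on build GRCh38.p14. Of the 39 members, 32 had a window, and 6 of them (18.8%) held a match in at least 1 of theirs: ASNS, CHAC1, CEBPG, JDP2, PPP1R15B and MTHFD1L. The motif was in 3.62% of all 35116 windows and in at least 1 window of 2.48% of the 7957 tested genes that had one. Among tested members with a window the share was 6 of 29 (20.7%). The members were chosen by name as genes of this response and its metabolism, so a higher share among them is no independent result. The 4 windows below are those of members described beside them that differ in direction, with the match in capitals. That of ASNS is at chr7:97872359-97872658 on the minus strand and holds TGATGAAA from base 183 of the window. That of CHAC1 is at chr15:40953221-40953520 on the plus strand and holds the reverse complement from base 42. That of JDP2, 1 of its several starts, is at chr14:75427772-75428071 on the plus strand with the match from base 235, and that of PPP1R15B is at chr1:204411768-204412067 on the minus strand with the match from base 24.
ASNS: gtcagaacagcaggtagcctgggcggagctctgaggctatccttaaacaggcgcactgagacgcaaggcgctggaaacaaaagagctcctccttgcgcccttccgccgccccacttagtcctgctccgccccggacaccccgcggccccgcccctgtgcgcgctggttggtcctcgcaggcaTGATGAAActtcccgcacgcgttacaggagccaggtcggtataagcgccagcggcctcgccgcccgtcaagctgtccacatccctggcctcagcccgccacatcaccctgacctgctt
CHAC1: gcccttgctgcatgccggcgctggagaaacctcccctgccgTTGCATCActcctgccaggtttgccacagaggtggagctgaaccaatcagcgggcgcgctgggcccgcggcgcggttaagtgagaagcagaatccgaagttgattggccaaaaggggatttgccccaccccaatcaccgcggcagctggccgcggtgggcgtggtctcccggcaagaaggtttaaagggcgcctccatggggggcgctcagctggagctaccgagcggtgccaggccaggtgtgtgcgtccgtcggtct
JDP2: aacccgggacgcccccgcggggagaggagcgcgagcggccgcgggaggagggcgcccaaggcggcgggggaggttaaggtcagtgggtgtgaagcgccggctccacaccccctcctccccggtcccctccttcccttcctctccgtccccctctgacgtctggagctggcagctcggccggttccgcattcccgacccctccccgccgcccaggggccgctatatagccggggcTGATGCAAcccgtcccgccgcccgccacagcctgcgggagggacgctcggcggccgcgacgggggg
PPP1R15B: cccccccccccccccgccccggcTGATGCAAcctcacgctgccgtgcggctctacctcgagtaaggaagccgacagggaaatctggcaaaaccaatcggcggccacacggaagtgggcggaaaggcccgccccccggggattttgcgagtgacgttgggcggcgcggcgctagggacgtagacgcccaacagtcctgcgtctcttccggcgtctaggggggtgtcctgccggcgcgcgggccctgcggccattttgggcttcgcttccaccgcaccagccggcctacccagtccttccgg
The 6 members with a match lay on both sides of their control level. JDP2 had a ratio of 1.42, while CEBPG, CHAC1, MTHFD1L, ASNS and PPP1R15B lay between 0.845 and 0.624. A match is only a run of letters in the window, and binding was not measured.

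Among the stress effectors and targets, DDIT4 was the only one of 5 measured above its control level. DDIT4 (REDD1), an inhibitor of the growth kinase mTORC1, was at 31.6 FPKM in hnRNPK siRNA and 20.8 FPKM in control siRNA, a ratio of 1.52 (1.40 to 1.65) that falls just short of 1.5-fold once 1 FPKM is added. ASNS, asparagine synthetase, had 124 FPKM in hnRNPK siRNA and 176 FPKM in control siRNA, a ratio of 0.705 (0.685 to 0.725) from 8353 reads in hnRNPK siRNA and 10685 reads in control siRNA. ASNS was thus lower while ATF4 mRNA was higher, and in the order of member levels it ranked 4 in hnRNPK siRNA and 2 in control siRNA. All genes tested from 100 FPKM had a median log2 ratio of 0.20, near ATF4 at 0.22 and above ASNS at −0.50. TRIB3, a pseudokinase induced by CHOP and ATF4, had 4.64 FPKM in hnRNPK siRNA and 5.93 FPKM in control siRNA, a ratio of 0.783 (0.673 to 0.911). CHAC1, an enzyme that breaks down glutathione and a sensitive ATF4 target, was at 4.56 FPKM in hnRNPK siRNA and 5.51 FPKM in control siRNA, a ratio of 0.828 whose interval of 0.681 to 1.01 includes 1. XPOT, the exporter of tRNA from the nucleus, had 72.8 FPKM in hnRNPK siRNA and 78.2 FPKM in control siRNA, a ratio of 0.930 (0.902 to 0.960) that lay above 1 after centring or with TMM factors. STC2, a secreted stress glycoprotein, and VLDLR, a lipoprotein receptor, were listed at 0 in both libraries. For a gene of 1000 bases, 3 reads would be 0.105 FPKM in hnRNPK siRNA and 0.117 FPKM in control siRNA, which is the upper limit a count of 0 allows there.

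Over the 13 measured members of the ATF4-CHOP branch the median log2 ratio was −0.10, which turned to 0.04 after centring and 0.07 with TMM factors. The summed level of all 16 genes of the branch was 742 FPKM in hnRNPK siRNA and 742 FPKM in control siRNA. ATF4, PPP1R15A and ASNS weigh most in that sum, and the first pair was higher while ASNS was lower. By median and sum the branch was near its control level, while its measured genes ran from −0.63 for PPP1R15B to 0.58 for DDIT4 on the log2(FPKM + 1) scale.

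**Figure D2:**
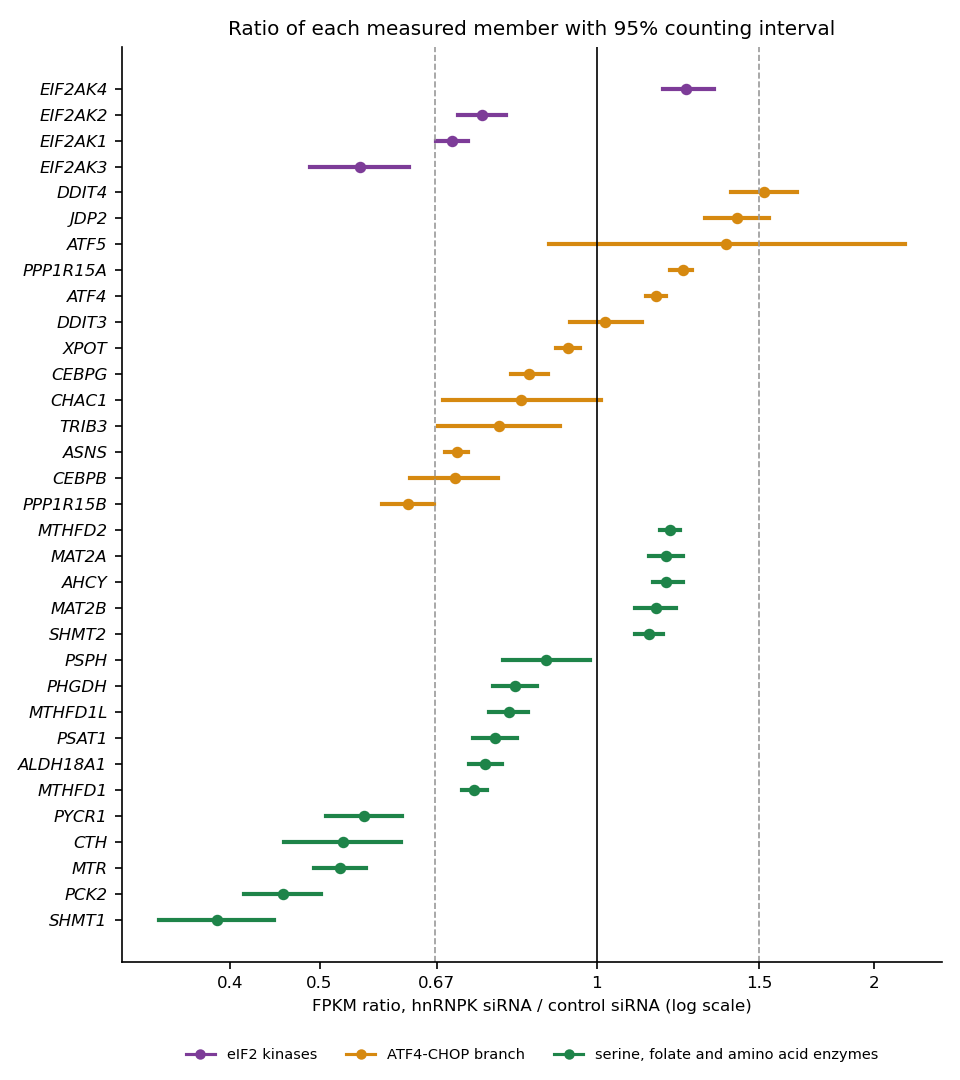
FPKM ratio of hnRNPK siRNA to control siRNA for the 33 measured members on a log axis, ordered within each branch, with bars for the exact 95% counting interval, a solid line at 1 and dashed lines at 1.5-fold either way. SHMT1 lies lowest at 0.387 and DDIT4 highest at 1.52, and the intervals of DDIT3, ATF5 and CHAC1 include 1. That of ATF5 may be too wide, because it uses the smallest reads that fit.

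As deposited, the enzymes of serine synthesis from glucose were all lower, by less than 1.5-fold. Of all genes tested, 64.8% also had a ratio below 1. PHGDH, the first enzyme, was at 44.0 FPKM in hnRNPK siRNA and 53.9 FPKM in control siRNA, a ratio of 0.815 (0.772 to 0.861). PSAT1, the aminotransferase of the next step, had 74.2 FPKM in hnRNPK siRNA and 95.8 FPKM in control siRNA, a ratio of 0.775 (0.733 to 0.819). PSPH, the phosphatase of the last step, had 15.5 FPKM in hnRNPK siRNA and 17.6 FPKM in control siRNA, a ratio of 0.881 (0.791 to 0.982). These 3 ratios lay close together, and the median log2 ratio of −0.29 was −0.14 relative to all genes. PSPH was near the median gene, with a log2 ratio of −0.03 after centring and −0.00 with TMM factors. A copy of PSPH, PSPHP1, was listed at 0.704 FPKM in hnRNPK siRNA and 0.983 FPKM in control siRNA, so reads may be shared between them.

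Of the 5 measured members among the folate enzymes, SHMT1 and MTHFD1 of the cytosol and MTHFD1L of mitochondria were lower, while SHMT2 and MTHFD2 of mitochondria were higher. SHMT1, which takes the one-carbon unit from serine in the cytosol, was at 3.80 FPKM in hnRNPK siRNA and 9.81 FPKM in control siRNA, or 2.58-fold lower (2.24 to 2.98) from 283 reads in hnRNPK siRNA and 659 reads in control siRNA. SHMT2, the mitochondrial enzyme of the same reaction, had 96.5 FPKM in hnRNPK siRNA and 84.8 FPKM in control siRNA, a ratio of 1.14 (1.10 to 1.18). SHMT1 had the lowest ratio of the 33 measured members, and 1.90% of all genes tested had a lower one. The level of SHMT2 over that of SHMT1 was 25.4 in hnRNPK siRNA and 8.64 in control siRNA.

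MTHFD1, the cytosolic enzyme that carries 3 folate reactions, was at 68.1 FPKM in hnRNPK siRNA and 92.5 FPKM in control siRNA, a ratio of 0.736 (0.713 to 0.760). MTHFD2, the mitochondrial dehydrogenase and cyclohydrolase, had 177 FPKM in hnRNPK siRNA and 147 FPKM in control siRNA, a ratio of 1.20 (1.17 to 1.23). The level of MTHFD2 over that of MTHFD1 was 2.60 in hnRNPK siRNA and 1.59 in control siRNA. All genes tested from 100 FPKM had a median log2 ratio of 0.20, near MTHFD2 at 0.26. Those from 30 to 100 FPKM had −0.02, above MTHFD1 at −0.44. MTHFD1L, the mitochondrial synthetase that releases formate, did not follow MTHFD2, at 31.5 FPKM in hnRNPK siRNA and 39.3 FPKM in control siRNA and a ratio of 0.802 (0.764 to 0.841). ALDH1L2, a mitochondrial enzyme that oxidises formyl-folate, was at 0 FPKM in hnRNPK siRNA and 0.0155 FPKM in control siRNA from 1 read, and no fold is given. The cytosolic pair summed to 71.9 FPKM in hnRNPK siRNA and 102 FPKM in control siRNA, and the 4 mitochondrial enzymes to 305 FPKM in hnRNPK siRNA and 271 FPKM in control siRNA.

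In the methionine cycle MTR stood apart from the other 3 genes. MTR, methionine synthase, which takes a methyl group from folate, was at 4.83 FPKM in hnRNPK siRNA and 9.18 FPKM in control siRNA, or 1.90-fold lower (1.78 to 2.03) from 1457 reads in hnRNPK siRNA and 2494 reads in control siRNA. MAT2A, which makes S-adenosylmethionine, had 54.1 FPKM in hnRNPK siRNA and 45.5 FPKM in control siRNA, a ratio of 1.19 (1.14 to 1.24), and its regulatory subunit MAT2B had 48.3 FPKM in hnRNPK siRNA and 41.6 FPKM in control siRNA, a ratio of 1.16 (1.10 to 1.22). AHCY, which clears S-adenosylhomocysteine, had 89.4 FPKM in hnRNPK siRNA and 74.8 FPKM in control siRNA, a ratio of 1.19 (1.15 to 1.24). MAT2A, MAT2B and AHCY thus shared a small difference upward, and MTR, the gene that links the cycle to folate, was lower. At 10558 bases MTR is the longest member as recovered from the values, and across all genes tested the log2 ratio ran downward with length (Spearman rho −0.23).

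**Figure D3:**
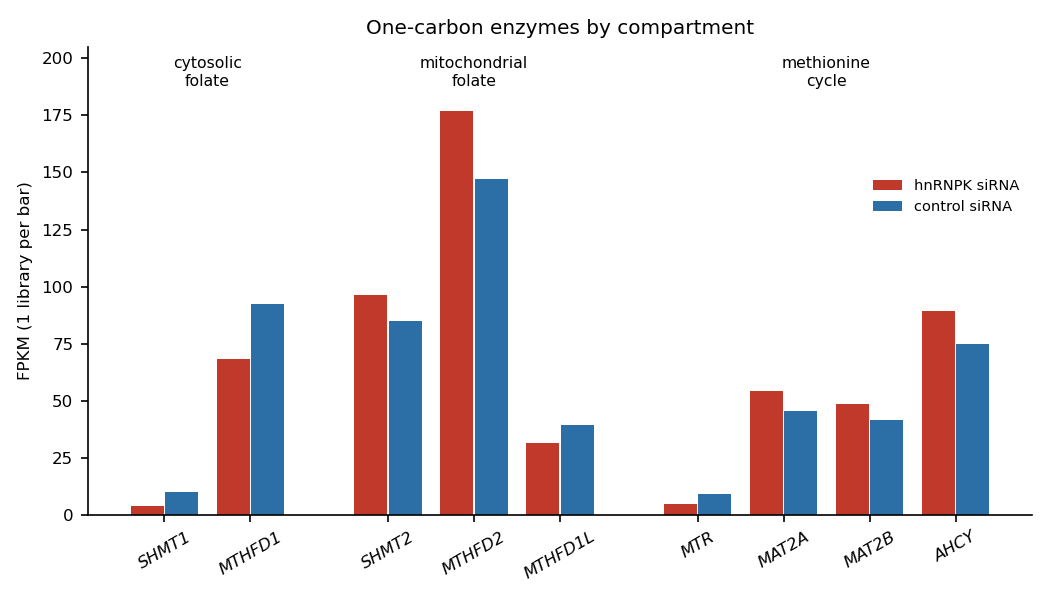
FPKM of the measured folate and methionine cycle enzymes, 1 library per bar with no error bars, hnRNPK siRNA left and control siRNA right in each pair. SHMT1, MTHFD1, MTHFD1L and MTR are lower in hnRNPK siRNA, and SHMT2, MTHFD2, MAT2A, MAT2B and AHCY are higher.

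The remaining 4 amino acid enzymes above 1 FPKM were lower, and 64.8% of all genes tested also had a ratio below 1. CTH, which cleaves cystathionine to cysteine, was at 4.83 FPKM in hnRNPK siRNA and 9.12 FPKM in control siRNA, or 1.89-fold lower (1.63 to 2.19). CBS, the enzyme before it in the same route, was listed at 0 in both libraries. ALDH18A1, which starts proline synthesis from glutamate, had 42.3 FPKM in hnRNPK siRNA and 55.9 FPKM in control siRNA, a ratio of 0.756 (0.726 to 0.788). PYCR1, the mitochondrial enzyme of the last step to proline, was at 11.8 FPKM in hnRNPK siRNA and 21.1 FPKM in control siRNA, or 1.79-fold lower (1.63 to 1.97). Both steps of proline synthesis measured here were thus below their control level, the last one by more. PCK2, mitochondrial phosphoenolpyruvate carboxykinase, was at 8.45 FPKM in hnRNPK siRNA and 18.5 FPKM in control siRNA, or 2.19-fold lower (1.99 to 2.42), but with a log2 ratio of −0.90 it was no longer past 2-fold after centring. GPT, cytosolic alanine aminotransferase, was listed at 0 in both libraries. Over the 16 measured enzymes of serine, folate and amino acid metabolism the median log2 ratio was −0.34, or −0.19 relative to all genes, and 5 of them (31.2%) were at least 1.5-fold lower, against 14.7% of all genes.

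The 7 members at least 1.5-fold lower all had mean levels under 30 FPKM, where 16 of the 33 members lie. In the range from 1 to 10 FPKM they made up 4 of 7 members, against 17.4% of all genes in that range, and from 10 to 30 FPKM 3 of 9 members, against 14.3%. From 30 to 100 FPKM 0 of 13 members were, against 8.59% of all genes, and from 100 FPKM 0 of 4, against 3.57%. The median log2 ratio of all genes went from −0.21 at 1 to 10 FPKM to 0.20 from 100 FPKM, where the 4 members had 0.24. The ratio thus ran with level among the members (Spearman rho 0.34 over 33 genes) as it did across all genes tested (0.18 over 11454). The genes share their 2 libraries, and whether level or length has a part in the members' ratios was not tested.

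**Figure D4:**
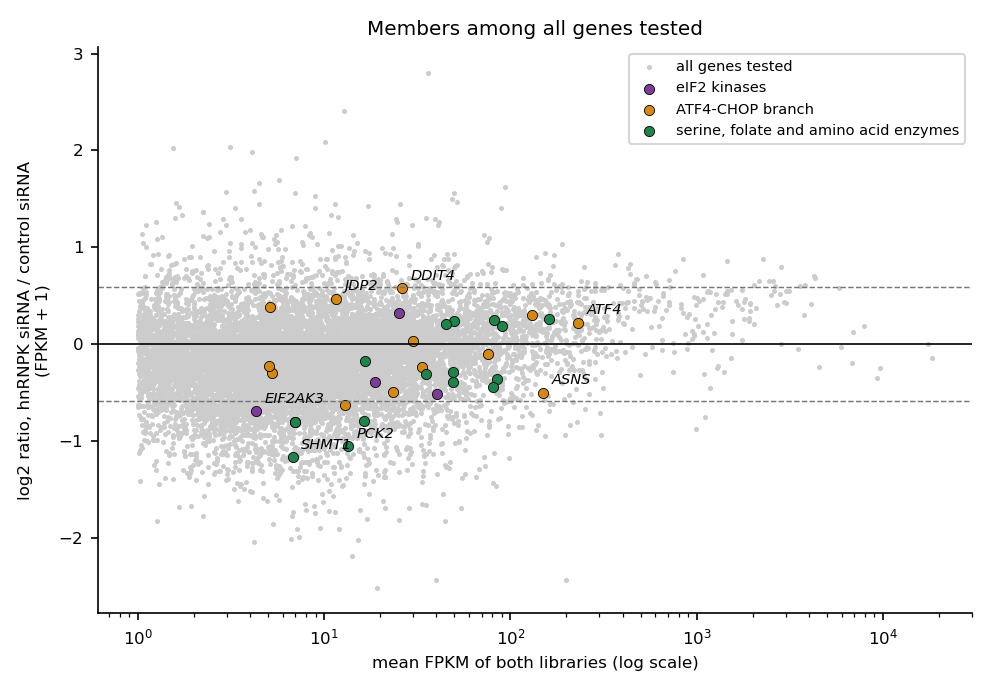
Log2 ratio of hnRNPK siRNA to control siRNA on FPKM + 1 against mean FPKM (log axis) for the 11454 genes tested in grey, with the 33 measured members coloured by branch and dashed lines at 1.5-fold either way. The 7 members under the lower line are all left of 30 FPKM, and no member lies above the upper line.

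Other genes of the pathway, in lists that hold none of the 39 members, gave 14 of 82 measured genes at least 1.5-fold lower and 2 higher, or 17.1% and 2.44% against 14.7% and 3.67% of all genes. The subunits of eIF2 and of its exchange factor eIF2B had a median log2 ratio of 0.24, with 1 of 8 genes (12.5%) at least 1.5-fold lower. EIF2B4 was at 34.1 FPKM in hnRNPK siRNA and 24.4 FPKM in control siRNA, a ratio of 1.40 (1.30 to 1.51), and EIF2B3 was lowest at 0.515 (0.431 to 0.614). Of 25 other ATF4 target genes measured, 4 were at least 1.5-fold lower (16.0%, near the 14.7% of all genes). In that list 1 was higher, against 3.67% of all genes, and the median of −0.20 lay −0.05 from that of all genes. The one higher was GDF15, a stress-induced secreted factor, at 17.4 FPKM in hnRNPK siRNA and 6.41 FPKM in control siRNA, a ratio of 2.72 (2.05 to 3.65), and the lowest was SLC7A11, the cystine transporter, at 0.424 (0.389 to 0.461).

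Of 16 other folate, glycine and methionine genes, 3 were at least 1.5-fold lower (18.8%, near the 14.7% of all genes) and 0 higher, and the median of −0.23 lay −0.08 from that of all genes. GART, of purine synthesis, was highest at a ratio of 1.17 (1.12 to 1.21). In the list of other proline and aspartate family genes 3 of 11 were lower (27.3%, against 14.7% of all genes) and 0 higher, and the median of −0.46 lay −0.32 from that of all genes. SRR, serine racemase, had 0.636 FPKM in hnRNPK siRNA and 2.43 FPKM in control siRNA, a ratio of 0.262 (0.183 to 0.367), the lowest of that list. As deposited, SRR was thus at least 2-fold lower, like SHMT1 and PCK2 among the members and 3.55% of all genes tested. It rested on 45 reads in hnRNPK siRNA and 155 reads in control siRNA. With a log2 ratio of −0.92 it was no longer past 2-fold after centring.

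Genes of the other arms of the unfolded protein response had a median of −0.15, equal to that of all genes and 0.02 with TMM factors. Of these 14 genes, 2 were at least 1.5-fold lower (14.3%, against 14.7% of all genes) and 1 higher (7.14%, against 3.67%). DNAJB9, a chaperone induced by XBP1, was at 23.4 FPKM in hnRNPK siRNA and 14.8 FPKM in control siRNA, a ratio of 1.58 (1.46 to 1.72), and CRELD2, of the endoplasmic reticulum, was lowest at 0.498 (0.410 to 0.604). In the list of mitochondrial stress genes 1 of 8 was lower (12.5%, near the 14.7% of all genes) and 0 higher, against 3.67%. Their median of 0.05 was −0.06 with equal totals. LONP1, the mitochondrial protease, had 40.6 FPKM in hnRNPK siRNA and 76.4 FPKM in control siRNA, a ratio of 0.531 (0.509 to 0.553), and HSPD1, a mitochondrial chaperone, was highest at 1.35 (1.33 to 1.37).

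**Figure D5:**
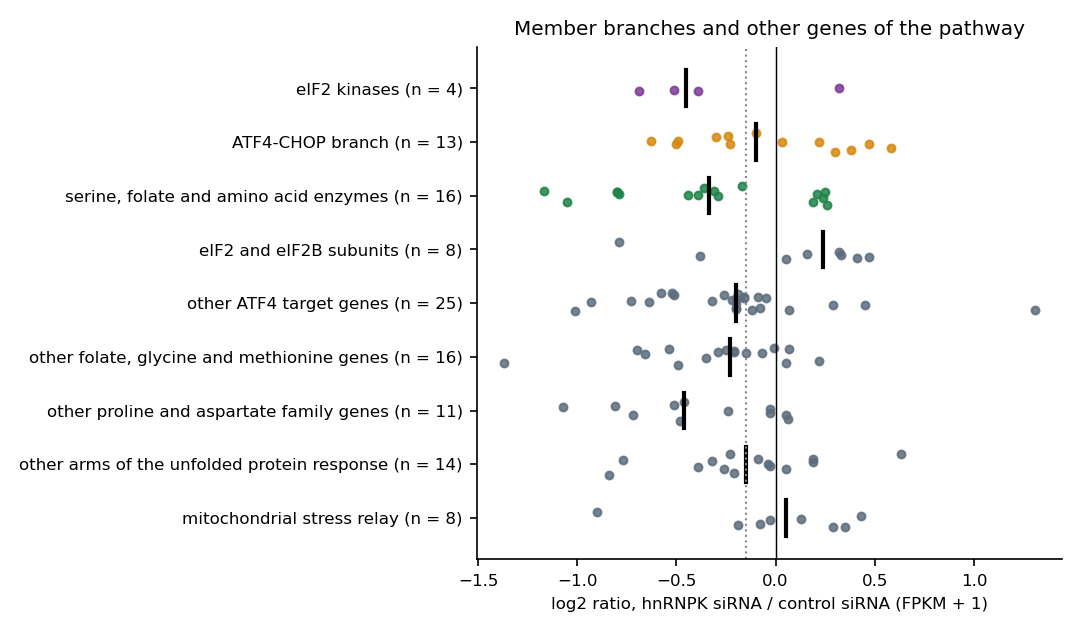
Log2 ratio of hnRNPK siRNA to control siRNA on FPKM + 1 for each measured gene of the 3 member branches and the 6 lists of other pathway genes, with a bar at each median, a solid line at 0 and a dotted line at the median of all genes, −0.15. The eIF2 kinases have a median of −0.45 and the eIF2 and eIF2B subunits one of 0.24.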

How the data were processed

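Total RNA from the 2 libraries was sequenced after preparation by standard Illumina protocols, per the labels. The authors deposited 1 table of FPKM values with 1 row per gene symbol. Bowtie 0.12.2 and build hg19 are named in the submitters' processing notes. How reads were counted, on which annotation and whether by strand is not stated in these sources. The siNC title identifies the control column, and the hnRNPK column carries only Si and K, which is a weaker match.

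Fractions of whole reads over whole lengths were fitted to the FPKM values (relative tolerance 5e-12), which worked for 99.97% of 19069 genes above 0. They give the smallest reads that fit, and true reads may be a common multiple. For ATF5, CEBPB, NUPR1, PSAT1 and CEBPG the recovered length is below the shortest GENCODE transcript, so their intervals may be too wide. Copies of 1 molecule would make any interval too narrow. Counts used log2(FPKM + 1), which understates the change of low genes, and a mean of at least 1 FPKM. FPKM ratios are without the added 1. Members, lists and tests were chosen with earlier results of these data known. Every member was named, with HNRNPK and, from each other list, the highest and lowest ratio and any gene at least 2-fold changed; some genes under this rule are not reported here. The recovery, intervals and TMM factors were tested on simulated data. Python 3.11.15, numpy 2.4.6, scipy 1.17.1 and pandas 2.3.3 were used.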

Additional observations from a re-analysis of the deposited data

How the results depend on the processing

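With 1 library per group, variation between cultures could not be measured, and no replicate could be left out. No paired analysis was possible because each group has 1 library. Of 68 values of a member count, a branch median or HNRNPK under an alternative setting, 45 stayed within 1.5 times the count or within the counting interval, and 23 did not. For a branch median the interval was the mean one of the gene or genes nearest that median. A count that went to or from 0 was always taken as not staying. Raising the pseudocount to 5 FPKM left 3 members at least 1.5-fold lower, against 5.31% of all genes, and 0 at least 2-fold lower, against 0.742%. It gave −0.36 for the eIF2 kinase median and −2.37 for HNRNPK. Centring made 2 members at least 1.5-fold higher, against 7.22% of all genes, and left 1 at least 2-fold lower, against 2.10%. It put the medians at −0.30 for the kinases, 0.04 for the ATF4-CHOP branch and −0.19 for the enzymes, and HNRNPK at −2.29. TMM factors likewise gave 2 members higher, against 7.73% of all genes, and 1 past 2-fold lower, against 2.27%. The medians were then −0.28, 0.07 and −0.16 in the same order and HNRNPK was at −2.26. Under equal totals the medians were −0.56, −0.21 and −0.45 and HNRNPK was at −2.55. No filter moved the ATF4-CHOP median to −0.17. A pseudocount of 0.1 FPKM, or none, put DDIT4 as 1 member at least 1.5-fold higher, against 5.08% and 5.34% of all genes. Rescaling shifts every gene by about the same amount by construction, and a larger pseudocount shrinks low genes most. Using no pseudocount, and asking the counting interval to exclude 1, were choices made after seeing the data. The interval rule kept all 7 lower members, but also 1646 of the 1682 lower genes among all tested. It could therefore remove few genes and says little about the 7.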
